A study of Rattus norvegicus with 6 samples.

Results

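The genes described here belong to the amino acid response that is run by the transcription factor ATF4, together with the aminoacyl-tRNA synthetases. They were chosen by name. A list of 26 response genes was joined with every gene whose symbol follows the synthetase pattern (one letter, then ars1 or ars2) or is Eprs1. This gave 55 members with a probe set of their own among 14217 genes on the array, of which 25 are response genes and 30 are synthetases. Pycr1 from the list and Mars2 from the pattern had no probe set listed with a single gene entry, and are not analysed here as members. The phenylalanine synthetase subunit genes Farsa and Farsb, which the pattern leaves out, are given further on.

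The 6 Affymetrix arrays hold RNA of the rat cell line NRK-52E, which derives from kidney tubule epithelium. For 3 arrays the cells had received an AMPKα2 shRNA lentivirus, aimed at one of the catalytic subunits of AMP-activated protein kinase, which senses low cellular energy. For the other 3 they had received a control lentivirus. TGF-β1, a cytokine under which tubule cells take on mesenchymal traits, was present in both groups (10 ng/mL, 24 h), so every comparison here lies within TGF-β1 treatment. The labels call the arrays biological replicates without saying that the cultures were separate, and p-values measure the spread between these arrays.

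When a cell lacks an amino acid, uncharged tRNA activates the kinase GCN2, which phosphorylates the initiation factor eIF2α. General translation then falls, while the mRNA of ATF4 is translated more. ATF4 pairs with C/EBP proteins on a composite DNA element and switches on genes of amino acid synthesis, amino acid import and tRNA charging. The control is thus largely on translation, and mRNA of Atf4 reads the protein only in part. In kidney tubule cells these enzymes also feed serine, glycine and one-carbon units into nucleotide and glutathione synthesis.

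The composite element, spelt TGATGNAA, was searched on both strands of RefSeq promoter windows (rat build GRCr8, 250 bases before to 50 after each annotated start). A window was found for 50 of the 55 members, and 12 of them (24%) held the element. It was present in 3.98% of the 33469 windows of all genes, and in 2.24% of the 13242 windows of genes with a probe set here. Of the 15 cytosolic synthetases with a window 7 held it, and of the 13 mitochondrial synthetases 0 did. It was also in 2 of 7 windows of the factors and their regulators (Nupr1 and Trib3) and in those of Got1, Chac1 and Fgf21. None of the 7 windows for serine and one-carbon enzymes held it, nor did that of Asns, which says only that these letters are not in those windows. These members are known for their place in the response, so the element in their promoters is a description of the list and not a result of the arrays. The sequences below show the element, in capitals, in members that moved in different ways. Chac1 was higher with the AMPKα2 hairpin under each scaling tried, and Trib3, Got1 and Iars1 were lower. Nupr1, Tars1 and Aars1 did not pass with the values as deposited. Each sequence runs 5′ to 3′ on the strand of the gene, with 20 bases on either side.
Chac1, chr3:126795944-126795991, plus strand: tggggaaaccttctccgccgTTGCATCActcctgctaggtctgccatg
Trib3, chr3:161275527-161275574, minus strand: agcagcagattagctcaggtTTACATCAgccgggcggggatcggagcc
Got1, chr1:252330011-252330058, minus strand: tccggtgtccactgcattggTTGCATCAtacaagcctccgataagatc
Iars1, chr17:15193649-15193696, minus strand: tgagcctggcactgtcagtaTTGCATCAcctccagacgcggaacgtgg
Nupr1, chr1:190645929-190645976, minus strand: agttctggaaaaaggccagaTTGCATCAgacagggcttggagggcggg
Tars1, chr2:62114802-62114849, minus strand: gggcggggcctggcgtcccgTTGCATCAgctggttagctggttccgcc
Aars1, chr19:55908350-55908397, plus strand: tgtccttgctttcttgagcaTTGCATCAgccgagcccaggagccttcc
In 6 of these 7 the element has the same letters, TTGCATCA, and Trib3 has TTACATCA. The letters begin 167 bases upstream of the start in both Chac1 and Got1, which moved in opposite directions. Of the 12 members with the element 7 were lower and 2 higher as deposited, and of the 38 with a window that lacked it 28 were lower and 3 higher, where 41.5% of all genes were lower and 43.6% higher. After cyclic loess the counts were 4 lower and 5 higher with the element, and 20 lower and 9 higher without it, where 31.5% and 40.2% of all genes were. No test was made of the difference.

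**Figure D1:**
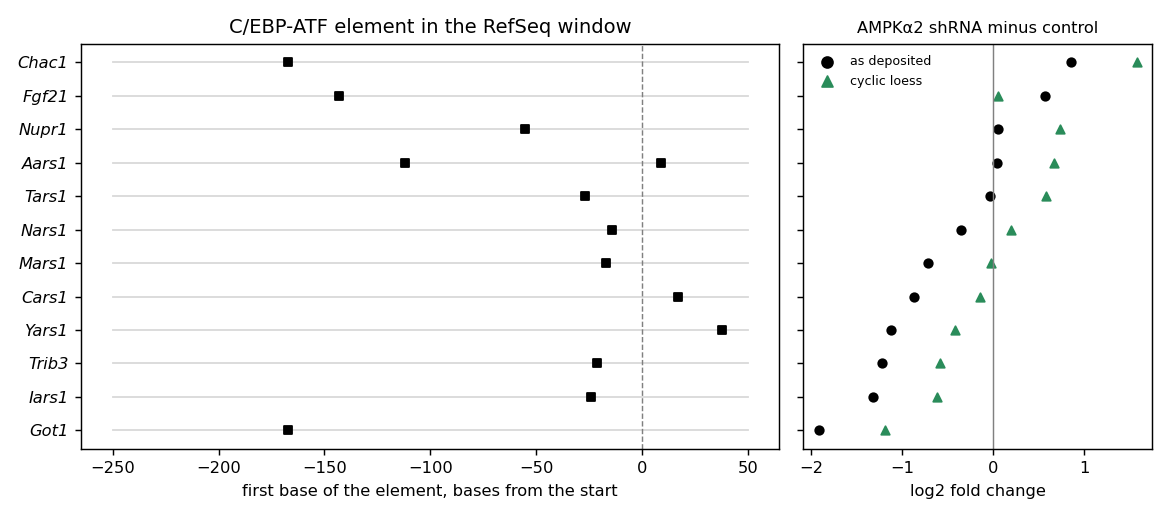
Left, position of the first base of each C/EBP-ATF element in bases from the annotated start (dashed line), for the 12 members whose RefSeq window held it, with the grey line spanning the window searched. Right, log2 fold change of the same members (AMPKα2 shRNA minus control) as deposited (black) and after cyclic loess (green). Members with the element run from Chac1 at 0.85 to Got1 at -1.91 as deposited, so both signs occur among them.

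Facts of the arrays bear on every value that follows. Prkaa2, the gene of the targeted AMPKα2, did not pass at -0.21 log2 units (limma, adjusted p = 0.0552), while Prkaa1, the gene of AMPKα1, fell by 2.34. The SD over probe sets was 1.76 to 1.82 on AMPKα2 shRNA arrays, against 2.17 to 2.19 on control arrays, and the change of a gene depended on its level. Genes at control levels of 5 to 6 had a median log2 fold change of 0.81, and those at 9 to 10 had -0.90. Members are therefore given as deposited and, where it matters, under 3 other scalings, namely quantile normalization, cyclic loess and median centring. Prkaa2 had -0.05, -0.15 and -0.42 in that order, and only the last passed. Prkaa1 passed as lower in all 4 scalings, and genes at its control level had a median of -0.74 as deposited. Of the epithelial markers, Krt8 stood at 12.24 on AMPKα2 shRNA arrays and 12.49 on control arrays, but Krt18 (3.86 and 3.53), Epcam (3.47 and 2.97) and Cdh1 (4.74 and 4.31) lay low in the range. Of 11 tubule markers 9 passed as higher and 1 as lower, and after cyclic loess 5 passed as higher. Of all genes at control levels under 8, 63.4% were higher as deposited. The tubule markers had a summed log2 level of 68.6 to 69.1 on AMPKα2 shRNA arrays and 61.7 to 62.4 on control arrays. Of 5 fibroblast, 3 endothelial and 4 leukocyte markers, 11 of 12 passed as higher with the hairpin, all at control levels under 6.46, and 9 did after cyclic loess. The summed log2 level of the leukocyte markers was 22.1 to 22.9 on AMPKα2 shRNA arrays and 18.5 to 18.8 on control arrays, and that of the endothelial markers was 14.2 to 15.0 and 12.4 to 13.4. For the fibroblast markers the sums were 32.8 to 33.4 and 26.4 to 26.5. Their part in the results below was not tested. In RNA of whole cultures, fewer cells of a kind and less RNA per cell cannot be told apart.

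With the AMPKα2 hairpin, 38 of the 55 members were lower, 5 were higher and 12 did not pass (limma, adjusted p under 0.05). Over all genes 85.1% passed, 41.5% lower and 43.6% higher. The share of members that were lower, 69.1%, thus stood above that of all genes, but most members lay at levels where most genes were lower. At a control level of 8 or more, 28 of 36 members were lower and 1 was higher, against 78.3% and 7.74% of genes at that level. Under 8, 10 of 19 members were lower and 4 higher, against 21.2% and 63.4% of genes there. The members' share that was lower was thus above that of all genes in the lower range, and near it in the upper range. After cyclic loess, 16 of the 36 were lower and 15 higher, against 46.7% and 32.8% of genes at that level. Of the 19, 9 were then lower and 2 higher, against 23.2% and 44.3%. Over the whole range, cyclic loess gave 25 members lower and 17 higher, where 71.8% of all genes passed, 31.5% lower and 40.2% higher. The quantile values gave 22 and 17, where 72.7% of genes passed, 28.9% lower and 43.8% higher. Median centring gave 43 and 5, where 83.1% of genes passed, 48.2% lower and 35.0% higher. In all 4 scalings 22 members passed as lower and 3 as higher (Chac1, Stc2 and Sars2), where 26.4% and 25.5% of all genes did. At least a 2-fold fall in each scaling was seen for 9 members (16.4%), against 9.45% of all genes, and a 2-fold rise for 0 members, against 2.26% of all genes. As deposited, 17 members were at least 2-fold lower and 0 higher, where 18.6% and 11.6% of all genes were. At a control level of 8 or more, 14 of 36 members were 2-fold lower as deposited, against 1957 of 5053 genes. In all 4 scalings 15 of these 36 were lower, against 2266 of the 5053. Under 8, 3 of 19 members were 2-fold lower as deposited, against 682 of 9164 genes. In all 4 scalings 7 of these 19 were lower, against 1493 of the 9164. The 9 members with a 2-fold fall in each scaling were Psat1, Psph, Mthfd1l, Asns, Got1, Cebpg, Vars1, Hars2 and Yars2. The groups did not overlap in 45 of 55 members, which is close to the 87.1% of all genes.

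**Figure D2:**
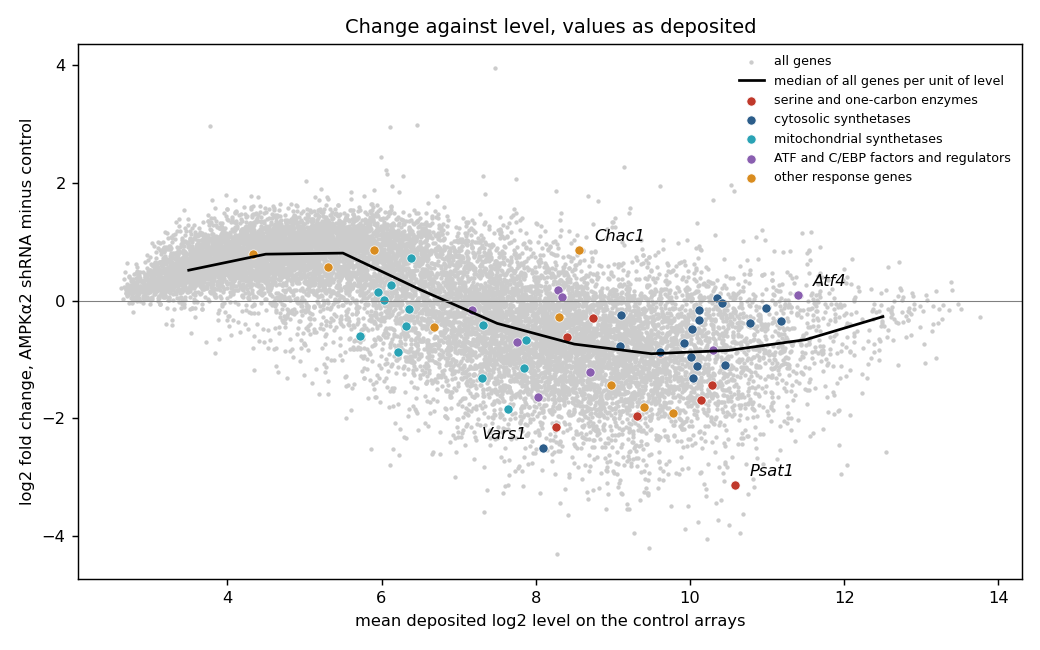
Log2 fold change as deposited (AMPKα2 shRNA minus control) against the mean log2 level on the control arrays, for all 14217 genes (grey) and the 55 members (coloured by role). The black line joins medians of all genes in bins of 1 log2 unit, with genes under 4 in the first bin and those of 12 or more in the last. Psat1 (-3.13) and Vars1 (-2.49) lie far below the line, Chac1 (0.85) lies above it, and most cytosolic synthetases lie on it or above.

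The pathway that makes serine from the glycolytic intermediate 3-phosphoglycerate was lower at the values as deposited in all of its 3 enzymes. Psat1, the aminotransferase of the second step, read 7.45, 7.55 and 7.35 on AMPKα2 shRNA arrays, against 10.59, 10.58 and 10.58 on control arrays. Every AMPKα2 shRNA array lay about 3 log2 units under every control array. The gene fell by 3.13 (SE 0.08, limma, adjusted p = 1.05e-09), the largest fall among the members, against a log2 fold change of -2.41 after cyclic loess. Genes of the same control level had a median log2 fold change of -0.84. Psph, the phosphatase of the last step, read 7.15, 7.62 and 7.30 on AMPKα2 shRNA arrays and 9.24, 9.33 and 9.38 on control arrays. The groups were well apart, and the gene fell by 1.96 (SE 0.12, adjusted p = 9.95e-08), with -1.28 after cyclic loess. Phgdh, the dehydrogenase that commits carbon to the pathway, read 8.81, 8.85 and 8.54 on AMPKα2 shRNA arrays and 9.67, 9.63 and 9.54 on control arrays. Its change of -0.88 (SE 0.10, adjusted p = 1.00e-05) was that of other genes at its level, whose median was -0.90. Phgdh did not pass in the quantile values (-0.12) or under cyclic loess (-0.16).

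Serine is then split by the hydroxymethyltransferases into glycine and a one-carbon unit on folate, and the MTHFD enzymes carry that unit through its oxidation states. The mitochondrial hydroxymethyltransferase Shmt2 read 8.49, 8.58 and 8.31 with the AMPKα2 hairpin and 10.15, 10.12 and 10.15 with control lentivirus. Its groups did not overlap, and it fell by 1.68 (SE 0.09, adjusted p = 4.71e-08). Shmt1, the cytosolic form, read 7.97, 7.78 and 7.59 with the AMPKα2 hairpin and 8.48, 8.24 and 8.48 with control lentivirus. It had a log2 fold change of -0.62 (SE 0.11, adjusted p = 0.000403), close to the -0.74 of genes at its level, and 0.010 after cyclic loess did not pass.

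The MTHFD enzymes parted from each other. Mthfd1l, the mitochondrial enzyme that releases formate, read 6.17, 5.77 and 6.37 on AMPKα2 shRNA arrays and 8.27, 8.22 and 8.29 on control arrays. It fell by 2.15 (SE 0.13, adjusted p = 1.21e-07), with -1.85 after cyclic loess. Its SD was 0.31 on AMPKα2 shRNA arrays and 0.03 on control arrays. Mthfd1, the cytosolic enzyme that takes up that formate, read 8.90, 8.87 and 8.77 on AMPKα2 shRNA arrays and 10.35, 10.25 and 10.24 on control arrays. It fell by 1.44 (SE 0.08, adjusted p = 7.04e-08), with -0.74 after cyclic loess. Mthfd2, the mitochondrial dehydrogenase upstream of Mthfd1l, read 8.58, 8.34 and 8.40 with the AMPKα2 hairpin and 8.70, 8.72 and 8.81 with control lentivirus. Its groups were close without overlapping. The change of -0.30 (SE 0.09, adjusted p = 0.00944) turned to 0.43 in the quantile values and 0.40 under cyclic loess, which both passed, so the direction of Mthfd2 depended on the scaling. Of the 8 serine and one-carbon enzymes, all 8 were lower as deposited, with a median of -1.56. All lay at control levels of 8 or more, where 78.3% of genes were lower. After quantile normalization, and likewise after cyclic loess, 5 were lower and 1 higher, and the same 5 passed as lower in all 4 scalings: Psat1, Psph, Shmt2, Mthfd1 and Mthfd1l. Of all genes 26.4% did, and at control levels of 8 or more 2266 of 5053 genes did. At these levels 45.6% of genes were lower and 32.7% higher in the quantile values, against 46.7% and 32.8% under cyclic loess.

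**Figure D3:**
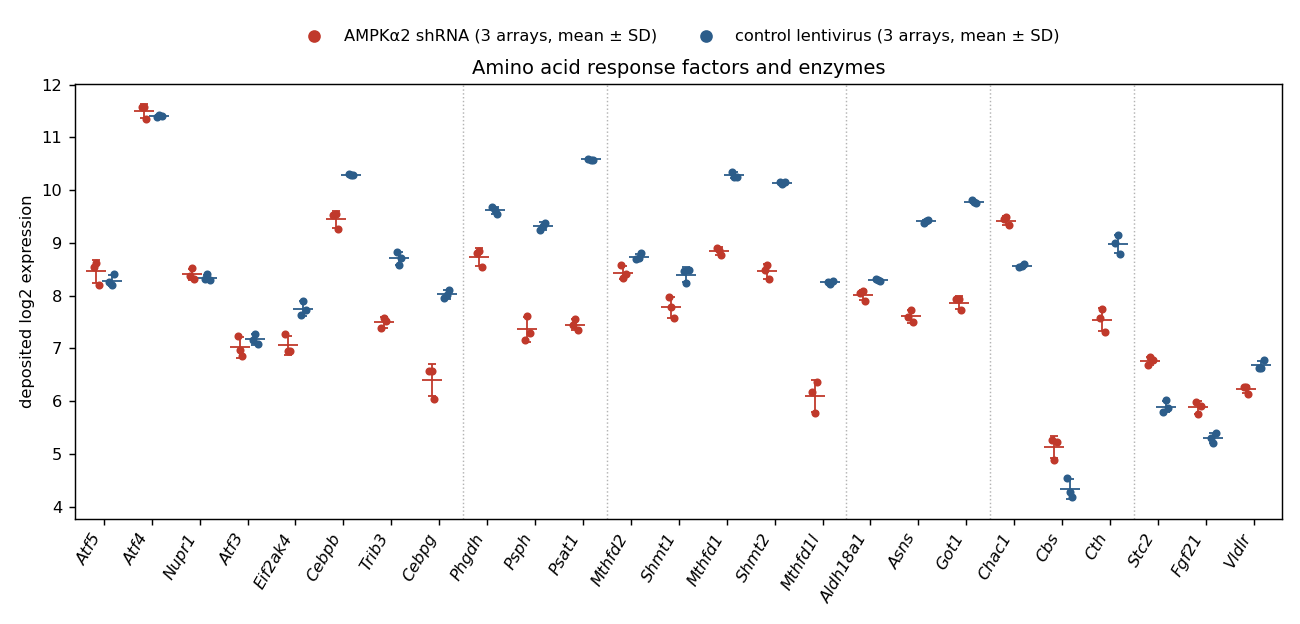
Deposited log2 expression of the 25 response genes on each AMPKα2 shRNA array (red) and each control array (blue), with mean and SD of 3 arrays. Dotted lines part the roles, from left to right factors and regulators, serine synthesis, one-carbon enzymes, other amino acid synthesis, transsulfuration and glutathione, and secreted factors with a receptor. Psat1 shows the widest gap (7.45 against 10.58), Atf4 the groups overlapping near 11.4 to 11.5, and Chac1 the AMPKα2 shRNA arrays above the control arrays (9.42 against 8.57).

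Enzymes of asparagine and aspartate were lower as well. Asns, the asparagine synthetase and one of the best known targets of ATF4, read 7.59, 7.73 and 7.50 on AMPKα2 shRNA arrays and 9.37, 9.42 and 9.43 on control arrays. The groups were apart by over 1.6 log2 units. Asns fell by 1.80 (SE 0.09, adjusted p = 2.30e-08), with -1.11 after cyclic loess. Got1, the cytosolic aspartate aminotransferase, averaged 7.87 ± 0.13 with the AMPKα2 hairpin and 9.78 ± 0.03 with control lentivirus (SD, n = 3 each), a log2 fold change of -1.91 (limma, adjusted p = 1.76e-08). Aldh18a1, which makes the precursor of proline and ornithine, averaged 8.01 ± 0.10 and 8.30 ± 0.02 in the same order. Its log2 fold change of -0.28 turned to 0.39 in the quantile values and 0.36 under cyclic loess, and passed in each.

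Around cysteine and glutathione the members moved in opposite directions. Chac1, which degrades glutathione and is a sensitive target of ATF4, read 9.44, 9.49 and 9.33 on AMPKα2 shRNA arrays and 8.55, 8.56 and 8.59 on control arrays. All AMPKα2 shRNA arrays stood above all control arrays. It rose by 0.85 (SE 0.08, adjusted p = 2.69e-06), where genes of its level had a median of -0.74, with 1.58 after cyclic loess. Cth, which makes cysteine from cystathionine, read 7.58, 7.74 and 7.31 with the AMPKα2 hairpin and 8.99, 9.15 and 8.80 with control lentivirus. It fell by 1.44 (SE 0.13, adjusted p = 1.49e-06), with -0.77 after cyclic loess. Cbs, the enzyme before it, read 5.27, 4.90 and 5.24 with the AMPKα2 hairpin and 4.55, 4.27 and 4.19 with control lentivirus. Its log2 fold change of 0.79 (SE 0.13, adjusted p = 0.000133) equalled the median at its low level, and 0.22 after cyclic loess did not pass.

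The factors at the head of the response did not move as one. Atf4 read 11.58, 11.57 and 11.35 on AMPKα2 shRNA arrays and 11.39, 11.42 and 11.40 on control arrays. The groups overlapped, through AMPKα2 shRNA replicate 3. At 0.10 log2 units (SE 0.09) Atf4 missed the threshold (adjusted p = 0.326), but it passed without that array, at 0.17 (adjusted p = 0.0329). Atf4 passed as higher in the quantile values (0.45) and under cyclic loess (0.59).

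Atf5, a relative of Atf4 that is also controlled at translation, read 8.55, 8.63 and 8.21 with the AMPKα2 hairpin and 8.25, 8.20 and 8.41 with control lentivirus. Its log2 fold change of 0.17 (adjusted p = 0.183) did not pass, but passed without AMPKα2 shRNA replicate 3, at 0.30, and after cyclic loess, at 0.85. Nupr1, a small stress protein, read 8.37, 8.52 and 8.32 with the AMPKα2 hairpin and 8.32, 8.40 and 8.30 with control lentivirus. It behaved alike, with 0.06 as deposited (adjusted p = 0.522) and 0.74 after cyclic loess, which passed. For these 3 genes the median change at their level was -0.66 to -0.74. Under median centring Atf4 (-0.12), Atf5 (-0.04) and Nupr1 (-0.16) did not pass. Atf3, an ATF4 target that represses other targets, read 7.24, 6.96 and 6.86 on AMPKα2 shRNA arrays and 7.16, 7.28 and 7.08 on control arrays. The groups overlapped, and -0.15 (adjusted p = 0.218) did not pass. Without AMPKα2 shRNA replicate 1 Atf3 passed at -0.26, and under median centring of all arrays it passed as lower, at -0.37.

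Of the factors and regulators, 4 of 8 were lower and 0 higher as deposited, where 41.5% of all genes were lower and 43.6% higher. Their median control level was 8.32, and at levels of 8 or more 78.3% of genes were lower and 7.74% higher. There were 4 lower and 3 higher after cyclic loess, and 2 lower and 3 higher in the quantile values. Median centring gave 5 lower and 0 higher. Of all genes, 31.5% were lower and 40.2% higher after cyclic loess, and 28.9% and 43.8% in the quantile values. Under median centring 48.2% of all genes were lower and 35.0% higher. Cebpg, a C/EBP partner of ATF4, read 6.58, 6.57 and 6.04 on AMPKα2 shRNA arrays and 7.95, 8.01 and 8.11 on control arrays. It fell by 1.63 (SE 0.14, adjusted p = 1.07e-06), with -1.31 after cyclic loess, and its other probe set had -0.90. Trib3, a pseudokinase that ATF4 induces and that holds ATF4 back, read 7.39, 7.58 and 7.52 on AMPKα2 shRNA arrays and 8.83, 8.58 and 8.72 on control arrays. It fell by 1.22 (SE 0.09, adjusted p = 6.05e-07), and its other 2 probe sets had -1.83 and -1.86. Cebpb, another C/EBP partner, read 9.53, 9.55 and 9.26 with the AMPKα2 hairpin and 10.31, 10.28 and 10.29 with control lentivirus. Its change of -0.85 (SE 0.10) matched the -0.84 of genes at its level. Eif2ak4, which encodes GCN2, read 7.27, 6.96 and 6.95 with the AMPKα2 hairpin and 7.63, 7.91 and 7.72 with control lentivirus. Its log2 fold change was -0.69 (SE 0.11, adjusted p = 0.000144) as deposited. After quantile normalization neither Cebpb (-0.14) nor Eif2ak4 (-0.25) passed.

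Among the secreted members and the receptor, Stc2, a glycoprotein hormone of the stanniocalcin family, averaged 6.76 ± 0.08 with the AMPKα2 hairpin and 5.90 ± 0.11 with control lentivirus. It rose by 0.87 (limma, adjusted p = 4.96e-06), near the 0.81 of genes at its level, with 0.69 after cyclic loess. Fgf21, a stress hormone, averaged 5.88 ± 0.12 and 5.31 ± 0.09 in the same order (SD, n = 3 each). Its log2 fold change of 0.58 lay below the median of its level, and 0.05 after cyclic loess did not pass. Vldlr, a lipoprotein receptor, had -0.45 on the probe set used and 1.22 on another of its 4 probe sets, so no direction can be given for it.

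The synthetases, which charge each tRNA with its amino acid, were taken by compartment. The 17 cytosolic members, where Gars1 and Kars1 also serve mitochondria, had 13 lower, 0 higher and 4 that did not pass as deposited. All lay at control levels of 8 or more, where 78.3% of genes were lower and 7.74% higher. The count of 0 higher held at an unadjusted p under 0.05 as well. Their median log2 fold change was -0.48, against 0.05 over all genes, yet 12 of the 17 lay above the median of genes at their own control level. After cyclic loess 9 were higher and 5 lower, and after quantile normalization 7 and 5. Those shares, 52.9% and 29.4% after cyclic loess, stand beside 40.2% and 31.5% of all genes. At control levels of 8 or more, 32.8% of genes were higher and 46.7% lower after cyclic loess.

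The cytosolic members with the least change as deposited carry alanine, threonine, glycine and serine. Aars1 averaged 10.39 ± 0.18 with the AMPKα2 hairpin and 10.35 ± 0.03 with control lentivirus (SD, n = 3 each), a log2 fold change of 0.05. Tars1 had -0.04, Gars1 -0.12 and Sars1 -0.15, and none of these passed. After cyclic loess the 4 had 0.67, 0.58, 0.44 and 0.50, and all passed as higher. Wars1, Qars1, Nars1, Rars1 and Eprs1 had -0.24 to -0.48 as deposited, which passed, and 0.20 to 0.48 after cyclic loess, which passed on the other side. Without control replicate 1 Wars1 did not pass, at -0.22. For these 9 synthetases the values as deposited and after cyclic loess thus give different directions, or a call in one and none in the other. Under median centring Tars1 (-0.25), Gars1 (-0.34) and Sars1 (-0.37) passed as lower, and Aars1 (-0.17) did not pass. Wars1, Qars1, Nars1, Rars1 and Eprs1 passed as lower there too. On the probe sets used, Mars1, Hars1 and Cars1 had -0.72 to -0.87 as deposited and did not pass after cyclic loess, at -0.02 to -0.15.

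Another 5 of the 17 cytosolic synthetases were lower in all 4 scalings: Vars1, Iars1, Yars1, Kars1 and Lars1. Of all genes 26.4% were, and at control levels of 8 or more 2266 of 5053 genes were. Iars1, for isoleucine, read 8.82, 8.64 and 8.69 on AMPKα2 shRNA arrays and 10.05, 10.04 and 10.02 on control arrays. The groups did not overlap. It fell by 1.32 (SE 0.08, adjusted p = 1.33e-07), with -0.61 after cyclic loess. Yars1, for tyrosine, read 8.84, 9.09 and 8.99 with the AMPKα2 hairpin and 10.09, 10.16 and 10.02 with control lentivirus. It fell by 1.12 (SE 0.09, adjusted p = 8.44e-07), with -0.42 after cyclic loess. Kars1 and Lars1, for lysine and leucine, had log2 fold changes of -1.10 and -0.95, and of -0.43 and -0.25 after cyclic loess. The other probe set of Iars1 had -0.44, and that of Kars1 had -0.08, which did not pass.

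Vars1, for valine, read 5.41, 6.01 and 5.39 on AMPKα2 shRNA arrays and 8.01, 8.21 and 8.06 on control arrays. On this probe set it fell by 2.49 (SE 0.15, adjusted p = 1.06e-07). Its other probe set went the opposite way, at 7.30 with the AMPKα2 hairpin and 5.96 with control lentivirus, a log2 fold change of 1.33 that passed. The mean of both probe sets gave -0.58. Which of them reads the transcript of Vars1 was not tested, and the fall holds for 1 probe set. Of 16 members with several probe sets, the probe sets of 4 disagreed, with both signs among those that passed: Vars1, Vldlr, Wars1 and Eprs1.

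**Figure D4:**
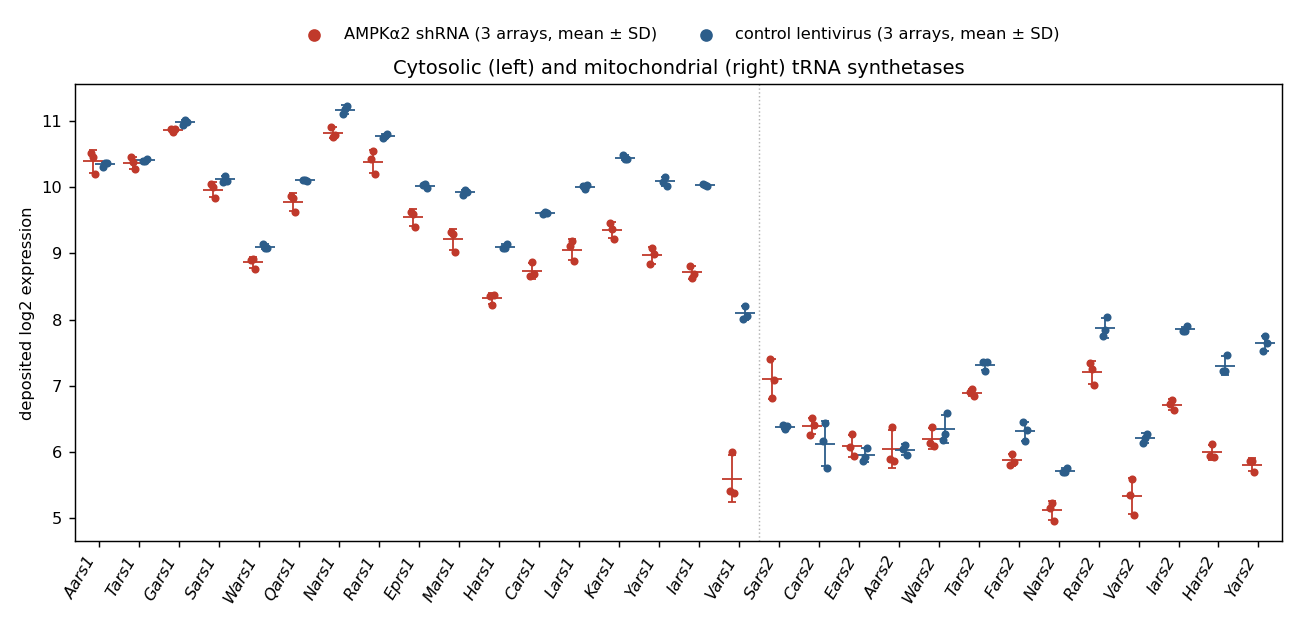
Deposited log2 expression of the 17 cytosolic (left of the dotted line) and 13 mitochondrial synthetases on each AMPKα2 shRNA array (red) and each control array (blue), with mean and SD of 3 arrays, ordered within each compartment by log2 fold change. Cytosolic members run from Aars1, where the groups overlap, to Vars1 (5.60 against 8.10), and mitochondrial members from Sars2 (7.11 against 6.38) to Yars2 (5.81 against 7.64).

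The 13 mitochondrial synthetases had 8 lower, 1 higher and 4 that did not pass, with a median of -0.44. Their median control level was 6.35 and all lay under 8, where 21.2% of genes were lower and 63.4% higher as deposited. Tars2, Hars2, Yars2, Iars2 and Rars2, which are 5 of the 8 that were lower, lay between 7 and 8, where the median of genes was itself -0.39. Of the 13, 11 stood below the median of their own level. Their counts moved little with the scaling, to 7 lower and 1 higher after cyclic loess and 6 and 1 after quantile normalization. The shares of 53.8% lower and 7.69% higher after cyclic loess stand beside 31.5% and 40.2% of all genes. At control levels under 8, 23.2% of genes were lower and 44.3% higher after cyclic loess. No test was made of the difference between compartments.

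Yars2 read 5.86, 5.87 and 5.69 on AMPKα2 shRNA arrays and 7.53, 7.75 and 7.64 on control arrays. It fell by 1.83 (SE 0.09, adjusted p = 3.13e-08), with -1.78 after cyclic loess. Hars2, for histidine, read 5.93, 6.12 and 5.93 on AMPKα2 shRNA arrays and 7.23, 7.23 and 7.47 on control arrays. It fell by 1.31 (SE 0.10, adjusted p = 4.69e-07), with -1.08 on its other probe set and -1.30 after cyclic loess. Iars2 read 6.73, 6.79 and 6.63 with the AMPKα2 hairpin and 7.83, 7.83 and 7.90 with control lentivirus, a log2 fold change of -1.14 (SE 0.08, adjusted p = 3.63e-07). In these 3 genes the groups did not overlap. Vars2, Nars2 and Fars2 had log2 fold changes of -0.88, -0.60 and -0.44 as deposited, and -1.34, -1.17 and -0.75 after cyclic loess. They passed in all 4 scalings. Sars2, the mitochondrial seryl-tRNA synthetase, was the synthetase that was higher. It read 7.41, 6.81 and 7.09 on AMPKα2 shRNA arrays and 6.42, 6.35 and 6.39 on control arrays, and rose by 0.72 (SE 0.13, adjusted p = 0.00038). Its spread was 0.30 on AMPKα2 shRNA arrays and 0.03 on control arrays (SD).

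For 11 amino acids both a cytosolic and a mitochondrial synthetase were measured. Both were lower in 6 of these pairs as deposited, and in 3 pairs in all 4 scalings, those for isoleucine, valine and tyrosine, of which the valine pair rests on 1 of the probe sets of Vars1. The cytosolic members lay at control levels of 8 or more and the mitochondrial members under 8. As deposited, 78.3% and 21.2% of genes at these levels were lower. In all 4 scalings 2266 of 5053 and 1493 of 9164 genes were. No share was computed for pairs of genes. The serine pair had -0.15 for Sars1, which did not pass, and 0.72 for Sars2 as deposited, while after cyclic loess both passed as higher, at 0.50 and 0.78. The cysteine pair had -0.87 for Cars1 and 0.27 for Cars2, which did not pass with all arrays and passed without control replicate 2, at 0.43. Neither of that pair passed after cyclic loess, at -0.15 and 0.050. The histidine pair had -0.78 and -1.31 as deposited, and -0.06 and -1.30 after cyclic loess. The other probe set of Hars1 had -1.12 as deposited and -0.44 after cyclic loess, so the small value rests on 1 probe set.

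**Figure D5:**
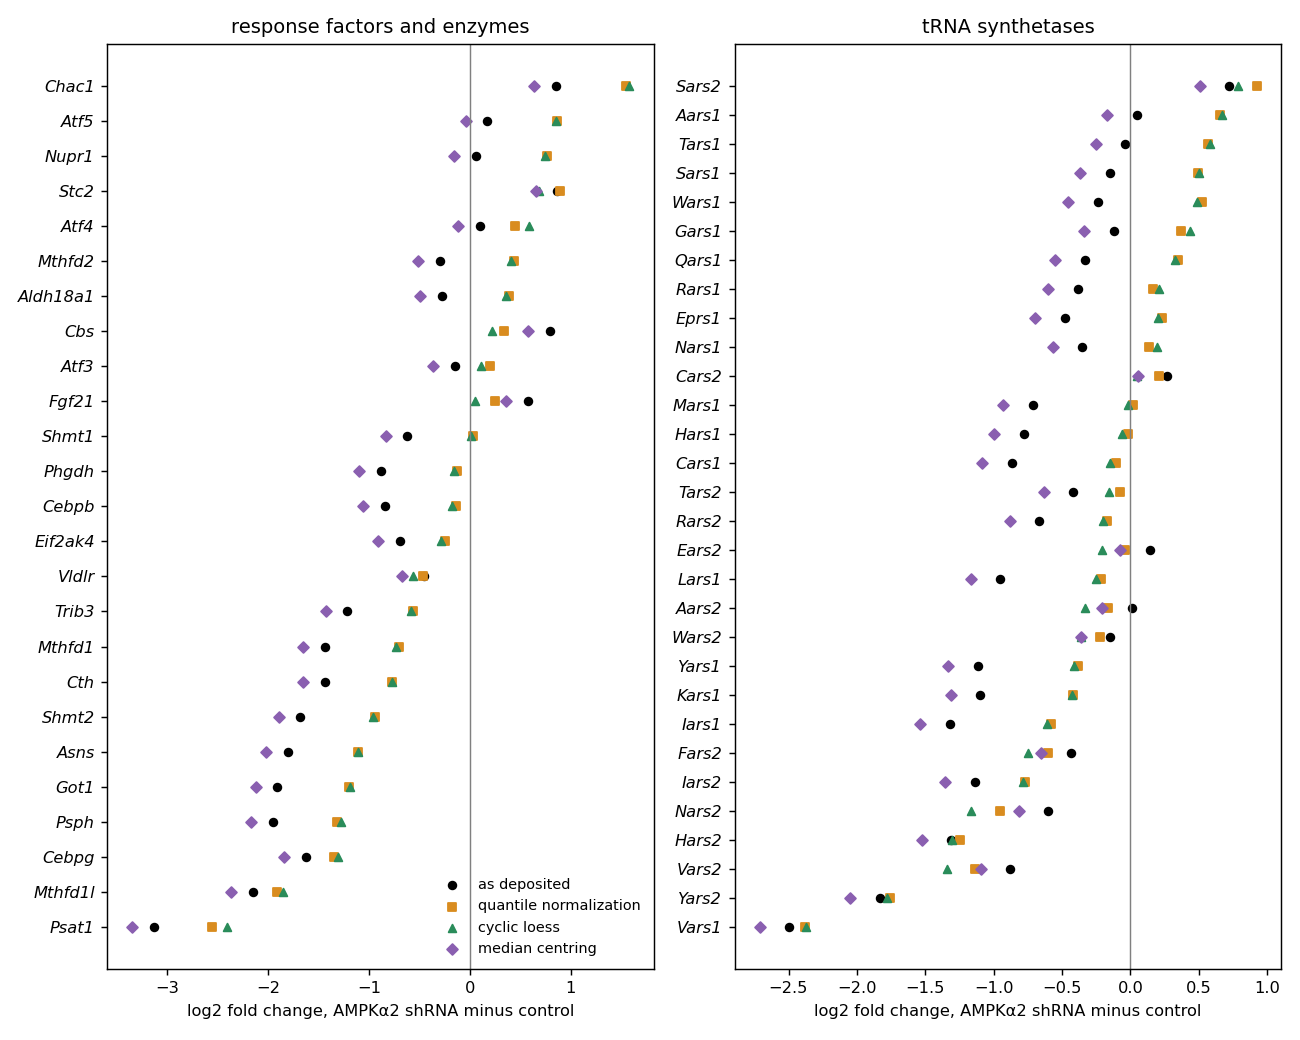
Log2 fold change (AMPKα2 shRNA minus control) of each response gene (left) and synthetase (right) as deposited (black circles), after quantile normalization (orange squares), cyclic loess (green triangles) and median centring (purple diamonds), ordered by the cyclic loess value. For Aars1 the values run from -0.17 to 0.67 and span 0, while those of Psat1 run from -3.35 to -2.41 and those of Chac1 from 0.64 to 1.58.

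Other genes of the pathway were read from lists chosen with earlier results of these data known. Of 15 genes of eIF2 kinases, eIF2 and its feedback, 11 were lower and 3 higher as deposited, with a median of -0.52. Of the 15, 12 lay at control levels of 8 or more, where 78.3% of genes were lower, so the share of 73.3% lower was near that of genes at such levels. Cyclic loess gave 4 lower and 6 higher, with a median of 0.052. Eif2ak2, the double-stranded RNA kinase PKR, fell by 1.37 and Ppp1r15b, a subunit of an eIF2α phosphatase, fell by 1.15. Eif2s1, which encodes eIF2α, fell by 0.86. Impact, a GCN2 inhibitor, and Gadd45a, a stress-induced growth arrest gene, had 0.33 and 0.26 as deposited. Both passed as higher after cyclic loess, at 0.98 and 0.96, and neither passed after median centring. Gdf15, a secreted stress cytokine, had 0.45 at a control level of 3.80 and did not pass after cyclic loess.

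Of 19 further folate, methionine and glycine genes, 9 were lower and 7 higher as deposited, 9 and 9 after cyclic loess, and 8 and 6 in all 4 scalings. Of all genes, 41.5% were lower and 43.6% higher as deposited, 31.5% and 40.2% after cyclic loess, and 26.4% and 25.5% in all 4 scalings. Tyms, which uses the folate carbon to make thymidylate, fell by 1.98. Mthfd2l, a relative of Mthfd2, fell by 1.88 and Gcsh, a carrier of the glycine cleavage system, fell by 1.75. Gldc, the decarboxylase of the same system, rose by 1.29 (SE 0.10, limma, adjusted p = 4.99e-07), with 0.82 after cyclic loess, and its control level was 5.10. Ftcd, of histidine breakdown, and Gnmt, which methylates glycine, rose by 1.08 and 1.05 over low control levels of 4.32 and 4.37.

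Of 15 other amino acid enzymes, 8 were lower and 6 higher as deposited, 6 and 7 after cyclic loess, and 6 and 4 in all 4 scalings. Among all genes the shares were 41.5% and 43.6% as deposited, 31.5% and 40.2% after cyclic loess, and 26.4% and 25.5% in all 4. Glul, the glutamine synthetase, averaged 9.52 ± 0.06 with the AMPKα2 hairpin and 8.50 ± 0.04 with control lentivirus (SD, n = 3 each). It rose by 1.02 (limma, adjusted p = 6.12e-07), with 1.75 after cyclic loess. Prodh, which degrades proline, rose by 1.18, and Bcat1 by 0.98, over control levels of 5.48 and 5.18. Genes at that level had a median of 0.81, and after cyclic loess Prodh had 0.85 and Bcat1 0.48. Glud1, the glutamate dehydrogenase, fell by 1.58. Bcat2, a branched-chain aminotransferase like Bcat1, fell by 1.54, and Gclm, a subunit of the enzyme that begins glutathione synthesis, was lower too.

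Of 13 partners of the synthetases and synthetases outside the naming pattern, 11 were lower and 1 higher, where 41.5% of all genes were lower and 43.6% higher. Their median control level was 8.19, and at levels of 8 or more 78.3% of genes were lower and 7.74% higher. Gatc, Qrsl1, Mtfmt, Pstk and Sepsecs lay under 8 and each was lower as deposited, where 21.2% of genes under 8 were. For the 13 genes, cyclic loess gave 6 lower and 5 higher, and the quantile values gave 4 lower and 6 higher. In all 4 scalings 4 were lower and 1 higher. Of all genes, 31.5% were lower and 40.2% higher after cyclic loess, and 28.9% and 43.8% in the quantile values. In all 4 scalings 26.4% of genes were lower and 25.5% higher. Aimp2, a scaffold of the multi-synthetase complex, fell by 1.55. Mtfmt, which formylates the mitochondrial initiator tRNA, fell by 1.45, and Tars3, a relative of Tars1, fell by 1.36. Trmt61a, part of a tRNA methyltransferase, rose by 0.81. Farsa and Farsb had -0.25 and 0.08, of which Farsa passed, and both passed as higher after cyclic loess, at 0.40 and 0.80.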

How the data were processed

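The deposited table holds log2 expression of 31099 probe sets on each of 6 arrays. Trizol RNA was labelled with a one-cycle Affymetrix kit, per the labels' protocols. For background correction, probe summary and normalization, the authors' steps are not stated in the labels. The 57 array controls were left out. Of the other 31042 probe sets, 20826 had a single gene symbol in the annotation of the platform, and the probe set with the highest mean was used for each of 14217 genes. The comparison of AMPKα2 shRNA with control used lmFit and eBayes of limma 3.58.1 (R 4.3.3, 2-sided) without further normalization or filter. P-values were adjusted over all genes (Benjamini-Hochberg) and passed under 0.05. A positive fold change means higher with the AMPKα2 hairpin. With 3 arrays against 3, an exact permutation test cannot give a 2-sided p under 0.1. The median SD of a gene was 0.13 on AMPKα2 shRNA arrays and 0.07 on control arrays, and the number of arrays limits the precision. Members, roles and lists were chosen with earlier results of these data known. Every member could be named, with values on each array for factors, serine and one-carbon enzymes, Asns, Chac1, Cth, Cbs, and the synthetases that passed with the 6 largest falls and with a rise. From each further list up to 3 rises and 3 falls were named, and Farsa and Farsb were added after their values were seen. Counts of members at control levels above and below 8 were also chosen after the data were seen. The step was tested on simulated arrays. Promoter windows are those of RefSeq on GRCr8. Alternatives were other scalings, a filter on low genes, other probe set rules, other variance models, a replicate block, a stricter threshold and leaving out each array.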

Additional observations from a re-analysis of the deposited data

How the results depend on the processing

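The scaling changed many counts of members. After quantile normalization 22 members were lower and 17 higher, with 5 and 1 among serine and one-carbon enzymes, 2 and 3 among factors and regulators, and 5 and 7 among cytosolic synthetases. After cyclic loess 25 members were lower and 17 higher, with 5 and 1 among serine and one-carbon enzymes, 3 factors and regulators higher, and 5 cytosolic synthetases lower and 9 higher. The median log2 fold change over all genes moved with it, being 0.05 in the deposited values, 0.16 in the quantile values, 0.09 under cyclic loess and -0.17 under median centring. Among members that passed before or after the scaling, those whose sign turned under quantile normalization and cyclic loess, in that order, were Shmt1 (0.029, 0.0105), Mthfd2 (0.43, 0.40), Aldh18a1 (0.39, 0.36), Eprs1 (0.23, 0.20), Gars1 (0.37, 0.44), Nars1 (0.13, 0.20), Qars1 (0.35, 0.33), Rars1 (0.17, 0.21), Sars1 (0.50, 0.50), Tars1 (0.56, 0.58) and Wars1 (0.53, 0.48), and Mars1 turned to 0.022 under the first. Atf3 (0.20, 0.11), Ears2 (-0.038, -0.21) and Aars2 (-0.17, -0.33) also turned, without passing as deposited or in either of these. The cause was not tested. With the mean of probe sets Vldlr turned to 0.067 and Wars1 to 0.024, and with the most variable probe set they turned to 1.22 and 0.29, where 1 cytosolic synthetase was higher. Without the lowest 25% of genes, 3317 of the 10662 genes left were higher and 5757 lower, against 6199 and 5896 of all 14217 genes.

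Leaving out 1 array at a time gave 37 to 39 members lower and 5 to 7 higher, 8 serine and one-carbon enzymes lower, 12 to 13 cytosolic synthetases lower, 8 mitochondrial synthetases lower and 1 to 2 higher, and 4 to 5 factors and regulators lower and 0 to 2 higher. Over all genes 5641 to 5910 were lower and 5905 to 6248 higher. Wars1 did not pass without control replicate 1 (-0.22), and Cars2 passed without control replicate 2 (0.43). Same-numbered arrays of the groups did not deviate together (r of -0.0211, 0.0145 and -0.0984 across genes), so the numbers were not taken as pairs. With the replicate block 2 mitochondrial synthetases were higher, Cars2 among them (0.27), and the calls of the other 54 members did not change. An intensity trend and array weights changed no call of a member.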

Other observations

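The probe set of Mars2, the mitochondrial methionyl-tRNA synthetase, is listed with several gene entries of that same symbol, so Mars2 was left out of the members. That probe set read 5.89, 6.45 and 6.39 on AMPKα2 shRNA arrays and 7.69, 7.66 and 7.63 on control arrays. The groups did not overlap, and the log2 fold change was -1.42.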
